A study of Oryza sativa with 6 samples.

Results

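The microRNA miR166 and the messenger RNAs it is known to cut, those of the class III homeodomain-leucine zipper (HD-ZIP III) transcription factors, were followed in rice roots exposed to hexavalent chromium, Cr(VI), a toxic and strongly oxidizing form of the metal. All 39 probes whose name starts with osa-miR166 were taken, covering 13 miR166 genes with 1 probe each under each tag (5'seq, 3'seq and Mature). They were set together with the 20 probes of 5 HD-ZIP III loci, called OSHB1 to OSHB5 here in the order Os03g0109400, Os10g0480200, Os12g0612700, Os03g0640800 and Os01g0200300. The array held 510 microRNA probes and 30226 genes and microRNA probes in all, of which 23491 were bright enough to be tested. Among these were 30 of the 39 miR166 probes and all 5 HD-ZIP III loci.

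The roots came from 6-day-old seedlings of cultivar TN-67. Seedlings were kept for 24 h in 50 µM Cr(VI), or for a short exposure to 50 µM Cr(VI) whose RNA was pooled from 1 h and 3 h, and roots in water served as the control of each exposure. Each exposure had 3 biological replicates and 1 dual-colour array per replicate, with the RNA of the Cr(VI) roots in Cy5 and the RNA of the water roots in Cy3 on every array. The values below are log2 ratios of Cr(VI) over water, so that 1 is a 2-fold higher signal in Cr(VI) roots, and a call means an adjusted p under 0.05 over all 23491 tested features.

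As background, plant microRNAs are cut from a hairpin precursor, and miR166 guides cleavage of HD-ZIP III messenger RNAs at a site that is conserved across land plants. The HD-ZIP III proteins set the upper side of leaves, the identity of vascular tissue and the shoot meristem. In Arabidopsis roots, miR165 and miR166 made in the endodermis move inward and limit HD-ZIP III proteins in the stele, which sets the type of xylem that forms. In rice, miR166 and OSHB4 have been linked to cadmium accumulation and tolerance. Several miR166 genes of rice give the same or nearly the same mature sequence, so that the Mature probes of different genes are not independent readings. The tag of each probe is printed as the files give it. Which transcript a probe reads, precursor or mature, is not given in the sources used here, and RNA was extracted on columns of a type that retains little RNA of microRNA length.

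Of the spots on each array, 73.8% to 81.1% were well above background in the Cr(VI) channel and 68.8% to 83.3% in the water channel. The 3 arrays at 24 h shared slide 3, while short replicate 1 was on slide 1 and short replicates 2 and 3 were on slide 2, so that exposure and slide cannot be told apart. Because no dye was swapped, a probe's dye bias cannot be told apart from its ratio to water. A bias equal on all arrays cancels in the difference between exposures. Both loci listed as root markers were well above background in both channels on all 6 arrays, with log2 ratios of -0.48 to -0.09 at 24 h and -0.48 to 0.99 after the short exposure. Of 3 loci listed as green leaf markers, 2 were tested, with ratios of 0.10 to 0.22 at 24 h and 0.24 to 0.43 after the short exposure. In whole roots, fewer cells of a type and less RNA per cell cannot be told apart, and the part of cell composition in the ratios was not tested.

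In the HD-ZIP III group, OSHB4, OSHB5 and OSHB3 rose in Cr(VI) roots at 24 h, by log2 ratios of 0.39 to 0.72, while OSHB1 and OSHB2 did not pass the test. Thus 3 of 5 loci were higher and 0 were lower at 24 h, where 33.7% of all tested features were higher and 30.9% were lower. After the short exposure 1 of 5 was higher, OSHB4, and 0 were lower, against 30.6% and 24.1% of all tested features. The median ratio of the 5 loci was 0.39 at 24 h and 0.00 after the short exposure, where that of all tested features was 0.02 at both. None reached a 2-fold change, and by the unadjusted p no locus was lower in either exposure either. Of all 23491 tested features, 7663 were lower at 24 h and 6426 after the short exposure by an unadjusted p under 0.05.

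OSHB4, Os03g0640800 on chromosome 3, had log2 ratios of 0.63 and 0.81 on the 24 h arrays 1 and 3, against 0.28, 0.26 and 0.18 on the short arrays 1, 2 and 3. The spot on 24 h array 2 was an outlier and dropped from the fit. The exposures did not overlap, and every array was above 0. OSHB4 was thus 1.65-fold higher at 24 h (log2 0.72 ± 0.12, SD, n = 2, limma adjusted p = 0.00012) and 1.18-fold higher after the short exposure (0.24 ± 0.06, SD, n = 3, adjusted p = 0.014). The difference between exposures, 0.48 with a standard error of 0.10, also passed (adjusted p = 0.0075), in a comparison where 16.4% of all tested features were called higher and 22.3% lower. With the outlier spot kept, the 24 h ratio was 0.69 and the difference 0.44. With each array centred on its median, the 24 h ratio was 0.46 (adjusted p = 0.0080) and the difference, at 0.24, did not pass (adjusted p = 0.29).

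The other 3 probes of OSHB4, which span coding sequence and 3'UTR per their names, kept all 3 arrays at 24 h. Their 24 h ratios ran from 0.36 to 0.57 by array, and their means were 0.46, 0.46 and 0.51. After the short exposure their means were 0.04, 0.07 and 0.07. Every probe was also tested on its own, over 33258 probes. Of these, 32.5% were higher and 32.4% lower at 24 h, and 29.7% and 24.5% after the short exposure. In the difference, 16.2% had a higher ratio at 24 h and 23.7% a lower one. Of the 20 HD-ZIP III probes, 8 were higher and 1 lower at 24 h, and 1 and 2 after the short exposure. In the difference, 5 were higher and 0 lower. For OSHB4, 4 of 4 probes were higher at 24 h and 4 of 4 in the difference. The brightest one alone was higher after the short exposure. The rise after the short exposure therefore rests on 1 probe, and it did not pass under 6 of 19 alternatives, among them leaving out short replicate 1 (0.22, adjusted p = 0.069) or 2 (0.23, adjusted p = 0.055), and with each array centred on its median (0.22, adjusted p = 0.12).

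OSHB5, Os01g0200300 on chromosome 1, listed as hox29 in RefSeq, had log2 ratios of 0.51 and 0.68 on the 24 h arrays 2 and 3, against 0.02, -0.04 and -0.03 on the short arrays. The outlier spot on 24 h array 1 was dropped from the fit. All short arrays lay within 0.04 of 0, and both 24 h arrays lay well above them. The locus was 1.51-fold higher at 24 h (0.60 ± 0.12, SD, n = 2, adjusted p = 0.00027), its short mean was -0.01 ± 0.03 (SD, n = 3, adjusted p = 0.87), and the difference of 0.61 with a standard error of 0.10 passed (adjusted p = 0.0023). With the outlier spot kept, the 24 h ratio was 0.52 and the difference 0.53. With each array centred on its median, the 24 h ratio was 0.31 (adjusted p = 0.046) and the difference, at 0.36, did not pass (adjusted p = 0.10).

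The 2 probes of OSHB5 disagreed in size. The brightest, which covers 5'UTR and coding sequence per its name, gave the values above. The other, which covers coding sequence and 3'UTR, had 0.20, 0.17 and 0.08 at 24 h, against -0.32, 0.05 and 0.04 after the short exposure. Its exposures did not overlap either, but its 24 h mean of 0.15 did not pass on its own (adjusted p = 0.13), nor did its difference of 0.22 (adjusted p = 0.15).

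OSHB3, Os12g0612700 on chromosome 12, had log2 ratios of 0.30, 0.38 and 0.48 at 24 h, against 0.34, 0.07 and 0.00 after the short exposure. The exposures overlapped because short replicate 1, the array on slide 1, reached the range of the 24 h arrays. The locus was 1.31-fold higher at 24 h (0.39 ± 0.09, SD, n = 3, adjusted p = 0.0020). Neither the short mean of 0.14 ± 0.18 (SD, n = 3, adjusted p = 0.16) nor the difference of 0.25 (standard error 0.11, adjusted p = 0.094) passed. Tested one by one, all 3 OSHB3 probes were higher at 24 h, with means of 0.29 to 0.39, where 32.5% of all probes were higher. None passed in the short exposure or in the difference. With each array centred on its median the 24 h ratio was 0.11 (adjusted p = 0.37).

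OSHB1, Os03g0109400 on chromosome 3, listed as HOX10 in RefSeq, had log2 ratios of 0.03, 0.08 and 0.33 at 24 h, against 0.07, -0.08 and 0.01 after the short exposure. The 2 ranges overlapped, and neither the 24 h mean of 0.15 ± 0.16 (SD, n = 3, adjusted p = 0.10) nor the short mean of 0.00 ± 0.07 (SD, n = 3, adjusted p = 0.98) passed. Its 6 probes spread more than those of the other loci after the short exposure, with means of -0.25 to 0.00. Tested one by one, 2 of the 6 were lower after the short exposure, both at -0.25, where 24.5% of all probes were lower. At 24 h 0 of 6 passed, and the means ran from -0.05 to 0.15. In all 6 probes the 24 h mean was above the short mean, but 0 of 6 passed in the difference. Probes of a locus share the same arrays and are not independent readings.

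OSHB2, Os10g0480200 on chromosome 10, listed as Hox9 in RefSeq, had log2 ratios of -0.04, -0.09 and -0.02 at 24 h, against -0.15, 0.06 and 0.10 after the short exposure. All 24 h arrays were slightly below 0 and inside the range of the short arrays. Its 24 h mean was -0.05 ± 0.04 (SD, n = 3, adjusted p = 0.51) and its short mean 0.00 ± 0.13 (SD, n = 3, adjusted p = 0.97). With each array centred on its median, the 24 h ratio was -0.33 and passed as lower (adjusted p = 0.018). The 5 probes had 24 h means of -0.18 to -0.05. Of all probes tested one by one, 32.4% were lower at 24 h, and of these 5, 1 was lower. It covers coding sequence and 3'UTR per its name and stood at -0.18 (adjusted p = 0.042).

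**Figure D1:**
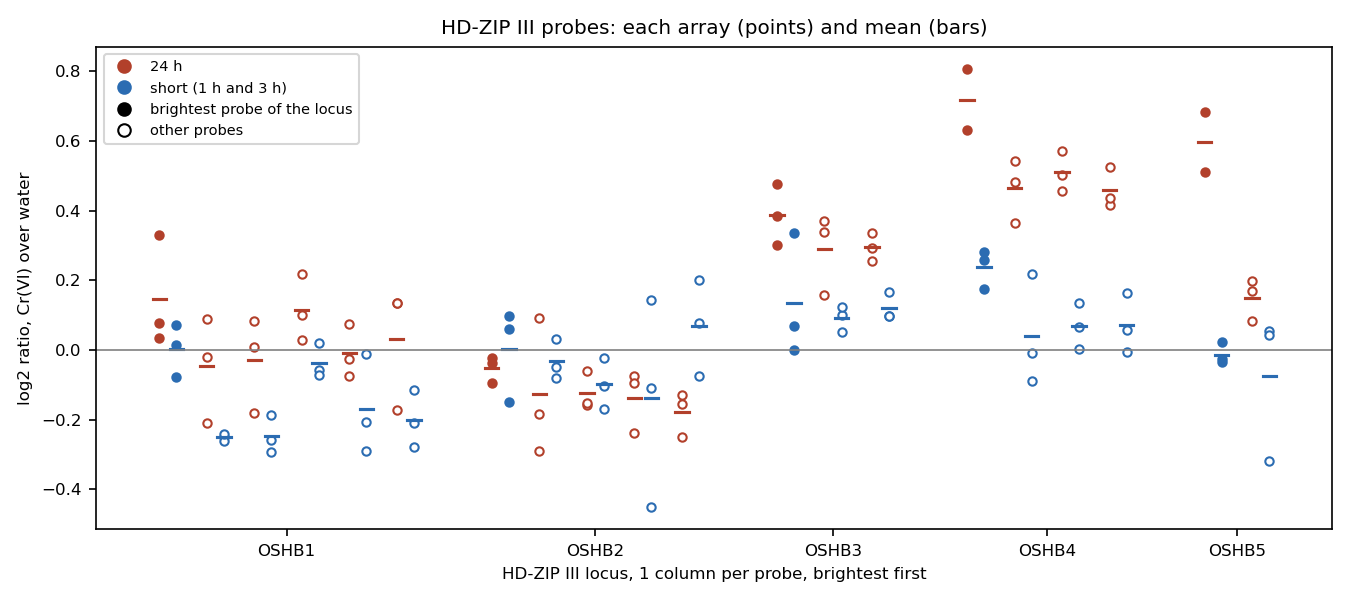
Log2 ratio of Cr(VI) over water (vertical axis) for the 20 probes of the 5 HD-ZIP III loci (horizontal axis, 1 column per probe, brightest first), with a point per array and a bar at the mean, 24 h in red at the left of each column and the short exposure in blue at the right. Tested one by one, all 4 OSHB4 probes had a higher ratio at 24 h than after the short exposure, where 16.2% of all probes did. Probes of a locus share arrays and are not independent. The brightest OSHB4 and OSHB5 probes show 2 arrays at 24 h because outlier spots were dropped.

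The signals behind these ratios were read in each channel. On the log2 scale, after loess and Aquantile normalization, OSHB4 averaged 12.68 in Cr(VI) roots and 11.96 in water roots at 24 h, against 11.84 and 11.61 after the short exposure. OSHB5 averaged 11.52 in Cr(VI) roots and 10.93 in water roots at 24 h, against 10.37 and 10.39 after the short exposure. These values are of the brightest probe of each locus, with 2 arrays at 24 h. In both probes the 24 h water mean exceeded its short counterpart, and the Cr(VI) mean did so by a larger amount. In the other 3 OSHB4 probes the water signal was slightly higher at 24 h or was lower. It averaged 10.17, 11.47 and 11.37 at 24 h and 10.10, 11.60 and 11.35 on the short arrays. The other OSHB5 probe averaged 8.55 and 8.45. The Cr(VI) signal of all these probes was higher at 24 h. In a separate test of the water channel alone (log2 Cy3, quantile normalized), the 24 h minus short difference was 0.51 for OSHB5 (adjusted p = 0.065) and 0.31 for OSHB4 (adjusted p = 0.17). By this test 0 of 5 HD-ZIP III loci were called in limma, and 4.47% of all tested features were called. An unadjusted p under 0.05 was found in 3 of the 5 loci and in 6512 of all 23491 tested features.

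**Figure D2:**
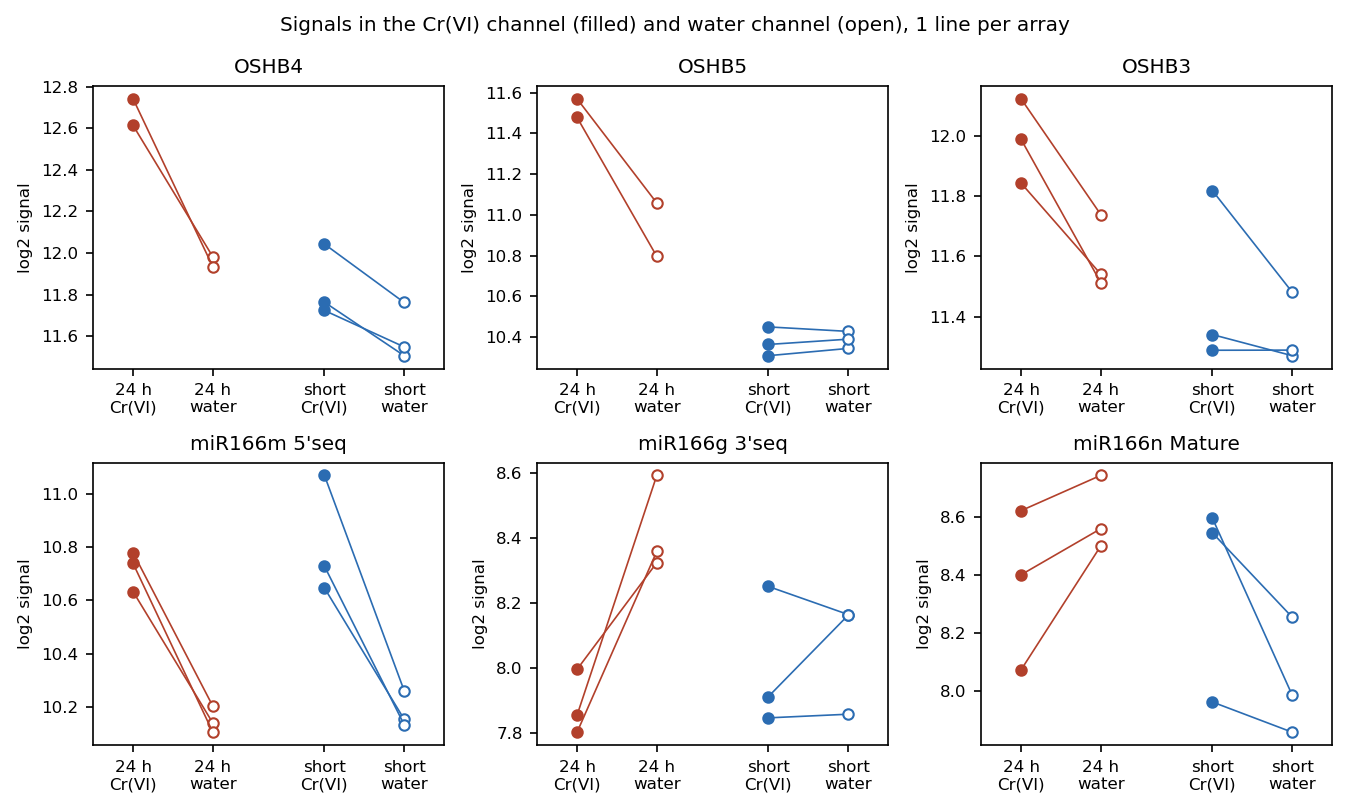
Log2 signal (vertical axes, each panel with its own range) in Cr(VI) roots (filled) and water roots (open) for OSHB4, OSHB5, OSHB3, the miR166m 5'seq, miR166g 3'seq and miR166n Mature probes, with a line per array, 24 h in red and the short exposure in blue. Lines run down from Cr(VI) to water at both exposures in OSHB4 and miR166m 5'seq, and at 24 h they run up in miR166g 3'seq and miR166n Mature.

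The miR166 probes showed mixed ratios. At 24 h, 7 of the 30 tested miR166 probes were higher in Cr(VI) roots, 4 were lower and 19 did not pass. That is 23.3% higher and 13.3% lower, against 33.7% and 30.9% of all tested features. After the short exposure 7 were higher and 0 lower, or 23.3% higher, against 30.6% higher and 24.1% lower among all tested features. By an unadjusted p under 0.05, 0 were lower too, against 6426 of all 23491 tested features. The median ratio was -0.09 at 24 h and 0.06 after the short exposure. Between exposures 6 probes had a lower ratio at 24 h and 0 a higher one in limma. By an unadjusted p under 0.05 these were 8 and 0, against 6376 and 4919 of all 23491 tested features. The 6 are 20.0% of the tested probes, near the 22.3% of all tested features that had a lower ratio, and 16.4% of all had a higher one. The extremes were -0.54 and 0.63, so that no miR166 probe reached a 2-fold change. Of 235 other microRNA probes tested, 29.4% were higher and 14.5% lower at 24 h, against 32.8% and 8.94% after the short exposure. In the difference, 7.23% of these had a higher ratio at 24 h and 5.96% a lower one. The 6 miR166 probes are 4 Mature probes, which are not independent readings, and the 5'seq and 3'seq probes of miR166g. Their share is therefore not read against that of the other microRNA probes.

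By tag, the calls fell as follows. Among 11 tested 5'seq probes, 6 were higher and 2 lower at 24 h, and 3 were higher after the short exposure. Among 11 tested 3'seq probes, 1 was higher and 2 lower at 24 h, and 2 were higher after the short exposure. Among 8 tested Mature probes, none passed at 24 h and 2 were higher after the short exposure. The difference between exposures passed in 4 of the 8 Mature probes, 1 of the 11 5'seq probes and 1 of the 11 3'seq probes. Among all tested features 33.7% were higher and 30.9% lower at 24 h, 30.6% and 24.1% after the short exposure, and 16.4% and 22.3% in the difference. The 5'seq and 3'seq counts in the difference, 9.09% each, were thus below the share over all features. Of the other microRNA probes, 7.32% of the 5'seq and 7.78% of the 3'seq probes had a lower ratio at 24 h. Among 63 other Mature probes 1.59% had a lower ratio and 4.76% a higher one. The miR166 Mature probes are not independent readings. Whether the tags differ from each other was not tested.

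The miR166m 5'seq probe, on chromosome 8, had the largest mean ratios to water, which without a dye swap cannot be told apart from dye bias. Its log2 ratios were 0.49, 0.58 and 0.63 at 24 h, against 0.81, 0.49 and 0.59 after the short exposure. All 6 arrays were well above 0 and the exposures overlapped. It was 1.48-fold higher at 24 h (0.57 ± 0.07, SD, n = 3, adjusted p = 0.00016) and 1.55-fold higher after the short exposure (0.63 ± 0.16, SD, n = 3, adjusted p = 0.00015). The difference of -0.06, with a standard error of 0.10, did not pass (adjusted p = 0.65). Its 3'seq partner was dim and had means of -0.09 at 24 h and 0.01 after the short exposure, neither of which passed, and its Mature partner was too dim to test.

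The miR166e 5'seq probe, on chromosome 3, had 0.34, 0.43 and 0.47 at 24 h, against 0.64, 0.48 and 0.57 after the short exposure. All short arrays were above all 24 h arrays, yet the difference of -0.15 did not pass (standard error 0.08, adjusted p = 0.19). The probe was higher in both exposures, at 0.41 ± 0.07 (SD, n = 3, adjusted p = 0.00033) at 24 h and at 0.56 ± 0.08 (SD, n = 3, adjusted p = 0.00010) after the short exposure. Neither the 3'seq nor the Mature probe of miR166e was bright enough to test.

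The 5'seq and 3'seq probes of miR166c, also on chromosome 3, moved the same way. The 5'seq probe had 0.09, 0.26 and 0.24 at 24 h, against 0.40, 0.19 and 0.35 after the short exposure, and its means of 0.20 (adjusted p = 0.024) and 0.31 (adjusted p = 0.0035) both passed. The 3'seq probe had -0.11, 0.50 and 0.35 at 24 h, against 0.63, 0.39 and 0.40 after the short exposure. Its short mean of 0.47 ± 0.14 passed (SD, n = 3, adjusted p = 0.0068). Its 24 h arrays spread widely, with array 1 below 0, and the mean of 0.25 ± 0.32 did not pass (SD, n = 3, adjusted p = 0.078). The 24 h call of the 5'seq probe was lost under 6 of 20 alternatives, among them without 24 h replicate 2 or 3, and the short call of the 3'seq probe was lost without short replicate 1.

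The miR166n 3'seq probe, on chromosome 3, was higher in both exposures. It had 0.33, 0.48 and 0.57 on the log2 scale at 24 h, against 0.54, 0.33 and 0.35 after the short exposure. The exposures overlapped. The means were 0.46 ± 0.12 (SD, n = 3, adjusted p = 0.00047) and 0.41 ± 0.12 (SD, n = 3, adjusted p = 0.0014), and the difference of 0.05 did not pass (adjusted p = 0.72).

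Another group of 3 probes, all 5'seq, were higher at 24 h and did not pass after the short exposure. They belong to miR166h and miR166k, both on chromosome 2 and known in rice to share a single precursor transcript, and to miR166l on chromosome 9. The miR166h probe had 0.29, 0.53 and 0.33 at 24 h (mean 0.39 ± 0.13, SD, n = 3, adjusted p = 0.0059), against 0.43, -0.05 and 0.24 after the short exposure (0.21 ± 0.24, SD, n = 3, adjusted p = 0.086). The miR166k and miR166l probes averaged 0.17 (adjusted p = 0.046) and 0.20 (adjusted p = 0.026) at 24 h, against 0.16 and 0.14 after the short exposure. The 24 h call was lost under 11 of 19 alternatives for miR166k, whose mean was 0.09 without 24 h replicate 2, and under 3 of 20 for each of miR166h and miR166l. All 3 had nearly the same or overlapping ratios in both exposures, and none of their differences passed (adjusted p of 0.32 to 0.94).

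The 3'seq and 5'seq probes of miR166g on chromosome 12 were lower at 24 h. The 3'seq probe had -0.74, -0.56 and -0.33 at 24 h, against 0.09, -0.25 and -0.01 after the short exposure. The exposures did not overlap. Its 24 h level in Cr(VI) roots was 0.688 of that in water roots (log2 -0.54 ± 0.21, SD, n = 3, adjusted p = 0.00089), the short mean was -0.06 ± 0.17 (SD, n = 3, adjusted p = 0.61), and the difference of -0.48 passed (standard error 0.13, adjusted p = 0.018). The 5'seq probe had -0.37, -0.20 and -0.22 at 24 h, against 0.14, -0.13 and 0.09 after the short exposure. It followed the 3'seq probe at a smaller size, with a 24 h mean of -0.26 ± 0.09 (SD, n = 3, adjusted p = 0.010) and a difference of -0.29 (standard error 0.10, adjusted p = 0.045). The 24 h call was lost without 24 h replicate 1 (-0.21, adjusted p = 0.068). The difference was lost under 11 of 20 alternatives, among them leaving out short replicate 1, short replicate 3 or any 24 h array. The 3'seq difference was lost under 4 of 20. The Mature probe of miR166g was dim, and its 24 h mean of -0.11 did not pass (adjusted p = 0.26).

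In the miR166g 3'seq probe the water signal differed more between exposures than the Cr(VI) signal. The log2 signal averaged 7.89 in Cr(VI) roots and 8.43 in water roots at 24 h. After the short exposure it was 8.25, 7.91 and 7.85 in Cr(VI) roots and 8.17, 8.16 and 7.86 in water roots. The water channel's own 24 h minus short difference was 0.30 (adjusted p = 0.18). Further probes passed as lower at 24 h by small amounts, miR166a 5'seq on chromosome 10 at -0.19 ± 0.16 (SD, n = 3, adjusted p = 0.048) and miR166d 3'seq on chromosome 2 at -0.15 ± 0.04 (SD, n = 3, adjusted p = 0.045). Their calls were lost under 11 and 9 of the alternatives run.

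Of the Mature probes, 6 were well above background in both channels on all 6 arrays, those of miR166a, b, c, d, f and n. Over these 6 probes, the median log2 ratio was -0.33, -0.14 and -0.07 on the 24 h arrays 1, 2 and 3, against 0.00, 0.47 and 0.33 on the short arrays 1, 2 and 3. The lowest and highest probe on an array lay from 0.08 to 0.35 apart, and the 6 probes tracked each other, with Pearson r of 0.856 to 0.996 between pairs over the 6 arrays. These points share arrays, and with shared mature sequences they are not independent. The 6 arrays fall into 2 exposures, so that r also includes the difference between them. The 24 h arrays were near or below 0, and the short arrays were split by slide, with slide 1 at 0 and both arrays of slide 2 above it.

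The miR166n Mature probe differed most. It had -0.43, -0.16 and -0.12 at 24 h, against 0.10, 0.61 and 0.29 after the short exposure, with no overlap. Its difference of -0.57 passed (standard error 0.14, adjusted p = 0.013), as did its short mean of 0.33 ± 0.25 (SD, n = 3, adjusted p = 0.021), while its 24 h mean of -0.24 ± 0.17 did not (SD, n = 3, adjusted p = 0.066). The miR166d Mature probe passed in the same comparisons, with a difference of -0.46 (adjusted p = 0.015) and a short mean of 0.25 (adjusted p = 0.031). The miR166a and miR166b Mature probes passed in the difference alone, at -0.50 (adjusted p = 0.034) and -0.37 (adjusted p = 0.044). The miR166c and miR166f Mature probes had like differences, of -0.37 (adjusted p = 0.082) and -0.47 (adjusted p = 0.067), which did not pass.

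The channel signals behind these differences were as follows. The miR166n Mature probe averaged 8.36 in Cr(VI) roots and 8.60 in water roots at 24 h, against 8.37 and 8.03 after the short exposure, on the log2 scale of signal. The miR166a Mature probe averaged 8.36 in Cr(VI) roots and 8.57 in water roots at 24 h, against 8.26 and 7.97 after the short exposure. The Cr(VI) signal was nearly the same at the 2 exposures in miR166n and slightly higher at 24 h in miR166a. The miR166b and miR166f Mature probes stood higher at 24 h in both channels, with 8.49 and 8.50 in Cr(VI) roots at 24 h, against 8.27 and 8.28 after the short exposure, and 8.63 and 8.65 in water roots at 24 h, against 8.04 and 7.96 after the short exposure. The water signal thus differed more than the Cr(VI) signal in all 4. Tested alone, the water channel was higher at 24 h than after the short exposure in 5 of 30 miR166 probes, the Mature probes of miR166a (0.58, adjusted p = 0.038), miR166d (0.58, adjusted p = 0.042) and miR166f (0.68, adjusted p = 0.032), and the miR166a 5'seq (0.90, adjusted p = 0.033) and 3'seq (0.87, adjusted p = 0.042) probes. The miR166n (0.54, adjusted p = 0.061), miR166b (0.57, adjusted p = 0.087) and miR166c (0.28, adjusted p = 0.36) Mature probes did not pass. The calls depend on the arrays: leaving out 1 array gave 0 to 6, and 4.47% of all tested features were called in the same test.

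Slide moved with the Mature ratios, and its part in them was not tested. Without short replicate 1, the short mean of miR166n Mature was 0.45 and its difference -0.68 (adjusted p = 0.0096). Its short call was lost without short replicate 2 (0.20, adjusted p = 0.12) and without short replicate 3 (0.36, adjusted p = 0.060), and under 5 of 20 alternatives in all. The short call of miR166d Mature was lost under 7 of 20. The differences of the Mature probes lost their calls under 9 of 20 alternatives for miR166a, 7 for miR166b, 2 for miR166d and 1 for miR166n. With short replicate 1 as the sole short array, the short mean was 0.10 (adjusted p = 0.61) and the difference -0.34 (adjusted p = 0.18), under the assumption that the lone array varies like the others.

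**Figure D3:**
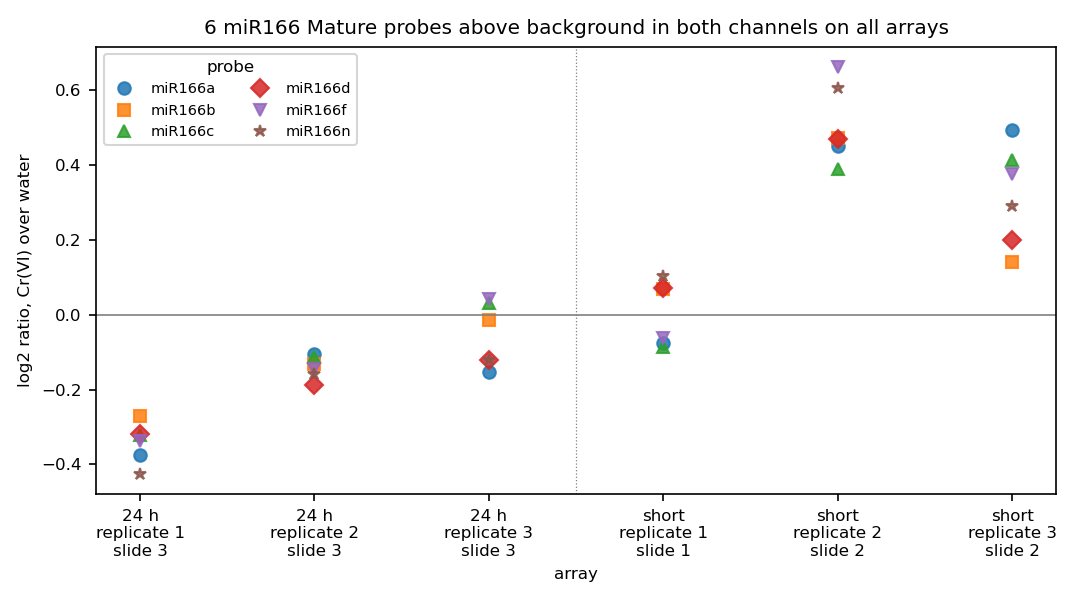
Log2 ratio of Cr(VI) over water (vertical axis) of the 6 Mature probes that were above background in both channels on every array, by array (horizontal axis, 24 h left of the short exposure, with replicate and slide), with a symbol per probe. The probes lie close together on each array, with medians of -0.33 to -0.07 at 24 h and 0.00 to 0.47 after the short exposure.

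The 19 tested miR166 probes that did not pass at 24 h included all 8 Mature probes, whose 24 h means ran from -0.24 to -0.05. That of miR166d was nearest to passing (adjusted p = 0.0502) and passed as lower under several alternatives. The miR166a 3'seq probe, on chromosome 10, had -0.49, -0.10 and 0.10 at 24 h, against -0.15, -0.02 and -0.10 after the short exposure, and passed in no ratio comparison. The 9 probes left out as dim were 5'seq of miR166f and n, 3'seq of miR166e and k, and Mature of miR166e, i, k, l and m.

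Set side by side, OSHB4, OSHB5 and OSHB3 were higher at 24 h. OSHB5 passed by 1 of its 2 probes, and OSHB3 did not pass under median centring (0.11, adjusted p = 0.37). At 24 h the bright Mature miR166 probes were near or below 0. Between exposures their water signal differed more than their Cr(VI) signal in miR166a, b, f and n. The 5'seq probes of miR166m, e and c and the 3'seq probe of miR166n had higher ratios at 24 h, which cannot be told apart from dye bias. Which transcript the probes read is not given, and a link between microRNA and targets was not tested. OSHB4 and OSHB5 had a higher ratio at 24 h than after the short exposure. Of the 30 tested miR166 probes, 6 had a lower one, a share near that of all tested features. With 3 arrays in each of 2 exposures, a correlation between microRNA and target across arrays would be one between 2 clusters, and none is given.

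Loci from 3 further lists give the surroundings of miR166 in the cell. Of 7 loci listed as small RNA machinery, which make or carry small RNAs, 5 were tested: 1 was higher and 0 lower at 24 h, 0 were higher and 3 lower after the short exposure, and 3 had a higher ratio at 24 h than after the short exposure. Their median ratio was 0.00 at 24 h and -0.22 after the short exposure. Of 3 loci listed for the trans-acting small interfering RNA pathway, which acts on auxin response factors, 2 were higher at 24 h, none passed after the short exposure, and 2 had a higher ratio at 24 h. Of 4 loci listed for radial patterning of the root, which includes the making of the endodermis, 3 were tested: 1 was higher and 2 lower at 24 h, and 2 were lower after the short exposure. With 33.7% of all tested features higher and 30.9% lower at 24 h, 30.6% and 24.1% after the short exposure, and 16.4% with a higher ratio at 24 h than after the short exposure, lists of 3 to 5 loci allow no reading beyond these counts. The files do not pair these loci with names, and each is counted here as listed.

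Features with the ratios most like those of OSHB4 and of the miR166m 5'seq probe were found by the root mean square difference of the log2 ratio over arrays. For OSHB4, over the 5 arrays with a value, these were Os03g0786500, Os02g0495400 and Os04g0282400, with differences of 0.049 to 0.050 and 24 h means of 0.66 to 0.71. For the miR166m 5'seq probe, over 6 arrays, they were Os08g0431100, Os04g0393500 and Os10g0483900, with differences of 0.045 to 0.056 and 24 h means of 0.55 to 0.60.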

How the data were processed

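The deposited intensity of each spot is its median pixel brightness, beside that of its local background. Per the file headers it came from Agilent Feature Extraction, version 10.7.1.1. The deposited table of the series holds log2 ratios, uncentred (column medians -0.178 to 0.0385), which matched processed red over processed green within 0.01 for 99.9% or more of the probes and were used as an alternative. RNA was amplified and labelled during in vitro transcription, per the labels' protocols. Other steps are not given in the sources used here.

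From the median intensities, background was corrected with normexp (offset 50), which pulls ratios of dim probes toward 0, and arrays were normalized by loess in limma 3.58.1 (R 4.3.3), with control and outlier spots at weight 0. Outlier spots were left out, spots of a probe averaged, and the brightest probe of a locus kept. A feature was tested if Cy5 or Cy3 was well above background on 3 or more of 6 arrays and each exposure kept at least 2 values. One limma model gave each exposure against 0 and their difference, with Benjamini-Hochberg adjustment over all 23491 tested features. The number of arrays limits the precision, and sharing of water RNA among arrays is not stated in the labels. All member loci are described, with every miR166 probe that passed a comparison or changed most of its tag. Members and lists were chosen with earlier results of these data known. The 5 OSHB names were searched in RefSeq and 3 were found, and 0 of 29708 locus numbers matched it. No sequence of a probe or microRNA was used here. The pipeline was tested on simulated data.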

Additional observations from a re-analysis of the deposited data

Results flagged for a closer look

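The results below are those whose ratio of Cr(VI) over water differed between the 24 h and the short exposure by the test of the difference itself (24 h minus short, log2 scale). Among the targets these were OSHB5 (Os01g0200300) at 0.61 and OSHB4 (Os03g0640800) at 0.48. Among the miR166 probes they were miR166n Mature at -0.57, miR166a Mature at -0.50, miR166g 3'seq at -0.48, miR166d Mature at -0.46, miR166b Mature at -0.37 and miR166g 5'seq at -0.29. Each rests on 3 arrays per exposure, or on 2 at 24 h for OSHB4 and OSHB5, and the exposures lay on different slides, so that the 2 cannot be told apart. The adjusted p lay between 0.0023 and 0.045. Several are not stable: the calls were lost under 11 of 20 alternatives for miR166g 5'seq, 9 for miR166a Mature, 7 for miR166b Mature, 4 for miR166g 3'seq, 2 for miR166d Mature and 1 for miR166n Mature, and under 3 of 19 for OSHB4 and 1 of 19 for OSHB5.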

How the results depend on the processing

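Counts are of calls in limma. At 24 h, the miR166 probes higher in Cr(VI) roots (7) became 2 with each array centred on its median and 4 in the deposited value table, and ranged from 3 to 7 without 1 array. Those lower (4) became 8 with median centring, 2 with no filter on dim probes and 7 with slide as a random block, and ranged from 1 to 6 without 1 array. After the short exposure the miR166 probes higher (7) became 4 with Agilent's processed signals and in the deposited table, and 11 with slide as a random block, and ranged from 5 to 10. The miR166 probes with a lower ratio at 24 h than after the short exposure (6) became 1 without the short arrays on slide 2, and ranged from 1 to 6, with 1 left without 24 h replicate 1. The HD-ZIP III loci higher at 24 h stayed at 3 without any 1 array, and became 1 of 3 tested when both channels had to be above background on all arrays, since the dropped spots of OSHB4 and OSHB5 removed them from the test. Under median centring 2 loci were higher at 24 h and 1 was lower, OSHB2 (-0.33, adjusted p = 0.018). HD-ZIP III loci higher in the difference (2) became 1 with processed signals and without the short arrays on slide 2, and 0 with median centring and with both channels above background (1 unadjusted each), and ranged from 2 to 3. The 1 locus higher after the short exposure became 0 with processed signals, median centring, both channels above background, without the short arrays on slide 2 and with a locus as the mean of all its probes (0 or 1 unadjusted), and ranged from 0 to 1. With that mean, chosen after seeing the data, OSHB1 was lower after the short exposure (-0.15, adjusted p = 0.049), the 1 locus lower there. Median centring moved the median of all features in the difference to -0.16, against -0.03, and the share of calls that were higher to 37.2% at 24 h and 23.1% in the difference, against 52.2% and 42.4%. Processed signals moved it to 42.6% after the short exposure, against 55.9%. In the water channel, the 1049 calls over all features became 3879 with medians set equal, 23 with processed green signals and 0 with the replicate block, and 0 to 3923 without 1 array. The miR166 probes higher there (5) became 0 with processed green signals (9 unadjusted) and 0 with the replicate block (8 unadjusted). Over all features, 5165 with processed green signals and 5388 with the replicate block had an unadjusted p under 0.05, in either direction. Without 1 array, 0 to 6 miR166 probes were higher there and 0 to 1 lower, and 4 were lower with medians set equal. To look for pairing by replicate number, each array's deviations from its exposure mean were correlated between the exposures. Same-numbered arrays had r of -0.236 to -0.100, so that no positive pairing was seen. The ratios themselves, with the means left in, had r of 0.528 to 0.632 between 24 h and short arrays. With the replicate block, 5 miR166 probes were higher and 6 lower at 24 h, 10 were higher after the short exposure and 7 had a lower ratio at 24 h, while the HD-ZIP III counts of 3, 1 and 2 stayed. For single probes and loci, the 24 h ratios of OSHB4, OSHB5, miR166m 5'seq, miR166n 3'seq and miR166g 3'seq passed under all alternatives that tested them. The cause of these changes was not tested. Dim probes limit the rest: 9 of 39 miR166 probes gave no test.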
